A study of Mus musculus with 10 samples.

Results

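The 8 constant region genes of the mouse immunoglobulin heavy chain locus were followed in antigen-specific germinal center B cells: Ighm, Ighd, Ighg3, Ighg1, Ighg2b, Ighg2c, Ighe and Igha. They were found by their symbol in the transcript names of the deposited quantification, and they are 8 of the 22380 genes and 16 of the 64019 transcripts measured. Each gene codes for the part of the antibody heavy chain that defines its class, or isotype: IgM, IgD, the IgG subclasses IgG3, IgG1, IgG2b and IgG2c, IgE and IgA. A mature B cell first makes IgM and IgD from one long primary transcript, by alternative splicing. Class switching then deletes the DNA between the rearranged variable exon and a constant gene further downstream, so that the same antigen specificity is joined to another isotype. Constant genes can also be transcribed without a variable exon before they are switched to, and total counts of a constant gene do not separate these germline transcripts from mature ones.

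The study asked what loss of the zinc finger protein ZBTB38 does to germinal center B cells. On a C57Bl6/N background, 3 genotypes were sequenced: Zbtb38fl/fl mice without Cre (WT, n = 2), Zbtb38fl/+ x Vav-Cre mice (HET, n = 2) and Zbtb38fl/fl x Vav-Cre mice (KO, n = 6). By the study's methods the cells were NP+ GL7+ IgD- B cells sorted after immunization with the hapten NP on ovalbumin, while the labels' treatment field reads untreated, and the age of the mice was not given in the sources used here. All 3 groups carry a floxed Zbtb38 allele derived from 1 founder, and Vav-Cre acts in all hematopoietic cells. WT mice lack Cre, so that Cre and the deletion cannot be told apart in comparisons with WT. The IgD- gate acts directly on one of the genes described here, Ighd. In these bulk libraries fewer cells of a type and less RNA per cell cannot be told apart.

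Libraries held 26612431 to 41059082 estimated counts, and 240942 to 511753 of these fell on the 8 isotypes. Zbtb38 was at 162 and 152 CPM (counts scaled to library size) in WT, 117 and 106 CPM in HET and 18.6 to 50.3 CPM in KO, with no overlap between genotypes. These values sum all transcripts of the gene, and the floxed exon was not counted apart here. The study reported complete loss of transcripts within that exon in KO. Summed germinal center markers (10 genes, such as Bcl6) were at 2118 to 4462 CPM, against 194 to 303 CPM for 10 T cell markers and 82.6 to 802 CPM for 10 myeloid markers. KO replicate 6 stood apart, with a median correlation of 0.954 to the rest over 14354 genes, where the other 9 libraries had 0.971 to 0.983, and values that moved much when it was left out are given with and without it.

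The 8 genes lie on the minus strand of chromosome 12 (GRCm38), in the order Ighm, Ighd, Ighg3, Ighg1, Ighg2b, Ighg2c, Ighe and Igha, from Ighm at chr12:113418558-113422730 to Igha at chr12:113254830-113260236. Ighd starts 6.41 kb downstream of the start of Ighm, Ighg3 61.5 kb, Ighg1 92.2 kb, Ighg2b 115 kb, Ighg2c 134 kb, Ighe 149 kb and Igha 162 kb. The deposited quantification holds 2 transcripts for each gene, a secreted form that ends early and a membrane form that goes on into the exons for the membrane anchor.

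**Figure D1:**
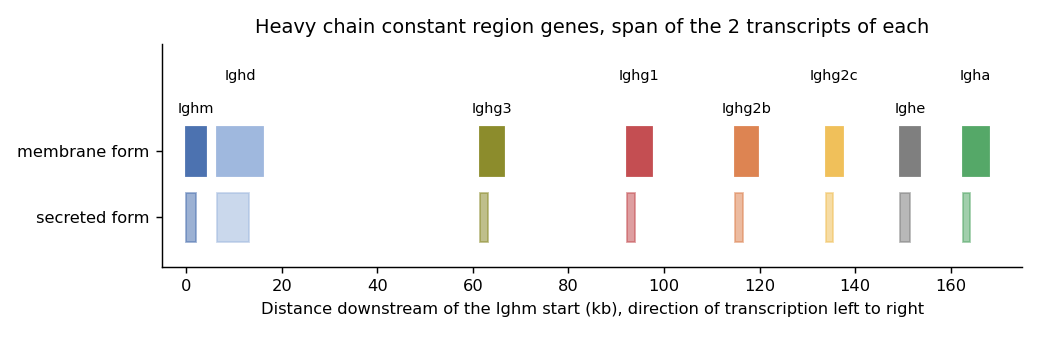
Position of the 8 constant region genes along the locus, in kb downstream of the Ighm start, with the span of the membrane transcript (upper boxes) and of the secreted transcript (lower boxes, paler). Each membrane transcript reaches further downstream than the secreted one of the same gene.

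The secreted and membrane forms of IgM share their first 4 constant exons and then part, and the bases at that point are shown because they tell the forms apart in the read counts. The last 24 shared bases are in lower case and the coding bases of each form alone in capitals, on the minus strand. The secreted end of Ighm covers chr12:113420867-113420928 in capitals and stays in the same exon up to the stop codon, and that of Ighg1 covers chr12:113328976-113328983. The membrane forms jump to the first membrane exon, at chr12:113418953-113419068 for Ighm and chr12:113327442-113327572 for Ighg1. Sequences are from the Gencode transcripts on GRCm38.
Ighm secreted: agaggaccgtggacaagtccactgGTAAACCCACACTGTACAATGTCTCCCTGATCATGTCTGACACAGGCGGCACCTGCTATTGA
Ighm membrane: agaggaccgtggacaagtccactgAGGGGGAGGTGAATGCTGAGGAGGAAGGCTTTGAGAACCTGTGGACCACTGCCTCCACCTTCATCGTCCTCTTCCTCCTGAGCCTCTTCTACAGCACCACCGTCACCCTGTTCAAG
Ighg1 secreted: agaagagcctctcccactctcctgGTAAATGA
Ighg1 membrane: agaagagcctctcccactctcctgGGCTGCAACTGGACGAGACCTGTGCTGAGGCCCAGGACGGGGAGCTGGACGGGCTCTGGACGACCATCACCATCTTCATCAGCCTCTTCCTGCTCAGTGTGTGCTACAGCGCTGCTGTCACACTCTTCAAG

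The secreted form of Ighm has 12.9% of its 31-base words to itself, that of Ighg1 10.4%, and those of the other isotypes at least 8.95%. Most of each secreted transcript is therefore shared with the membrane form, and the split between forms is an estimate by the quantifier. The annotated membrane transcripts of Ighg2c and Ighe end at the stop codon, with 0 bases after it, whereas those of Ighg3, Ighg1, Ighg2b and Igha carry 1215 to 1371 bases. The membrane share of counts is thus comparable between libraries for one isotype, but not between these isotypes.

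The 4 IgG genes are near copies of each other, and their coding sequences were 74.4% to 76.7% identical, or 85.9% for Ighg2b and Ighg2c. The hinge exon, which links the antigen-binding arms to the stem of the antibody, was 41.3% to 77.3% identical. The hinge exons are shown whole, in lower case, since they separate the IgG subclasses in reads. They lie on the minus strand at chr12:113360529-113360576 for Ighg3, chr12:113329844-113329882 for Ighg1, chr12:113307261-113307326 for Ighg2b and chr12:113288263-113288325 for Ighg2c.
Ighg3 hinge: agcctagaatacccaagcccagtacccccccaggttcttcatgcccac
Ighg1 hinge: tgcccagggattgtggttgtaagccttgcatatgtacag
Ighg2b hinge: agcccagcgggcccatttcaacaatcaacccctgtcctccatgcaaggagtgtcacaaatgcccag
Ighg2c hinge: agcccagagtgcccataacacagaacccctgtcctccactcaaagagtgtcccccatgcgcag

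Of the 31-base words of the IgG transcripts, 0.765% to 15.2% also occurred in another gene, with the highest shares for Ighg2b and Ighg2c, so part of the reads of these subclasses was divided between them by estimate. For Ighm, Ighe and Igha the share was 0, and for Ighd it was at most 0.113%.

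Ighm was the most abundant isotype per length in all 10 libraries. Its level in TPM, transcript abundance scaled for transcript length and library size, was 7568 and 7972 in WT, 2643 and 3139 in HET and 3523 to 9946 in KO, where the median was 4910. Among all genes measured Ighm ranked between 6 and 32 by TPM. Ighg1, the IgG subclass favoured in responses to protein in alum, came next in 9 of 10 libraries, with 2488 and 2327 TPM in WT, 2044 and 2278 TPM in HET and 249 to 2504 TPM in KO. The exception was KO replicate 6, where Ighg1 was at 249 TPM and ranked below Ighg2c, Ighg2b, Ighg3 and Igha.

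Below Ighg1 followed Ighg2b (mean over all libraries 944 ± 283 TPM, SD, n = 10), Ighg2c (487 ± 335 TPM), Ighg3 (321 ± 99.3 TPM), Ighd (95.6 ± 53.2 TPM), Igha (92.5 ± 68.0 TPM) and Ighe (45.0 ± 18.2 TPM). Ighm lay above Ighg1, and Ighg3 above Ighd, with no overlap of their ranges. The other neighbours were not separated by their spread: Ighg2b was above Ighg2c in 9 of 10 libraries, Ighg2c above Ighg3 in 6, Ighd above Igha in 5 and Igha above Ighe in 8. All isotypes were measured in every library, and even Ighe, the rarest, had 363 to 2061 estimated counts.

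**Figure D2:**
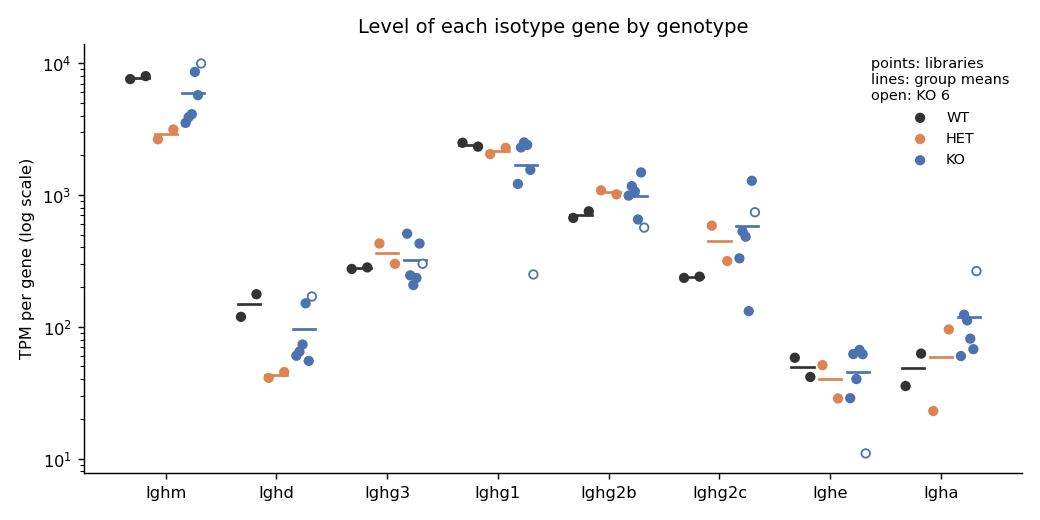
Level of each isotype gene in TPM (log scale) by genotype. Points are libraries, lines are group means, and the open point is KO replicate 6, which has the lowest Ighg1 (249 TPM) and the highest Igha (264 TPM) of the KO libraries.

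The composition of the heavy chain pool was then taken as each isotype's share of the estimated counts of all 8 genes. Ighm made up 61.4% and 64.3% of it in WT, 33.1% and 37.3% in HET, and 48.2%, 42.9%, 44.3%, 64.9%, 53.4% and 81.6% in KO replicates 1 to 6. The HET libraries were thus the lowest of all, the WT libraries were high, and KO covered the range from above HET to above WT. The exact (Clopper-Pearson) 95% intervals of these shares were at most 0.389 percentage points wide, and they cover counting error only, not the differences between mice.

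Ighg1 was highest in HET, with 26.4% and 23.3% in WT, 35.0% and 37.6% in HET, 17.0% to 34.2% in KO replicates 1 to 5 and 2.45% in KO replicate 6. Ighg2b, a subclass linked to TGF-beta signals, was at 6.75% and 6.26% in WT, 19.2% and 16.3% in HET and 5.59% to 17.1% in KO. Ighg2c, the subclass linked to interferon-gamma and the factor T-bet, was at 1.31% and 1.27% in WT, 4.87% and 2.48% in HET and 0.668% to 8.04% in KO. The WT libraries held the smallest Ighg2b and Ighg2c shares outside KO, and KO replicates 4 (both genes) and 6 (Ighg2b alone) went below them.

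Ighg3, which is made in responses to repetitive carbohydrate antigens, was at 2.37% and 2.51% in WT, 6.37% and 4.41% in HET and 2.25% to 7.23% in KO. Igha, the isotype of mucosal antibodies, made up 0.330% and 0.503% in WT, 0.419% and 0.998% in HET and 0.596% to 1.81% in KO. Every KO library was above both WT libraries for Igha, while HET replicate 2 lay inside the KO range. Ighe, the isotype of allergic responses, was at 0.403% and 0.280% in WT, 0.524% and 0.281% in HET and 0.0756% to 0.567% in KO. Ighd, at 1.10% and 1.55% in WT, 0.574% and 0.578% in HET and 0.586% to 1.60% in KO, was near the level of the rare switched isotypes under the IgD- gate.

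**Figure D3:**
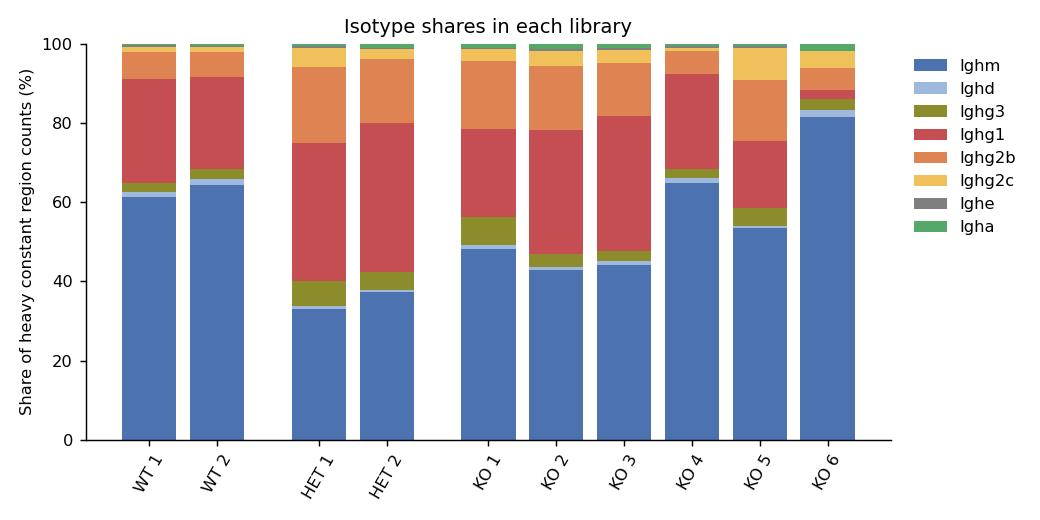
Share of each isotype in the estimated counts of the 8 heavy constant region genes, in percent, 1 bar per library. Ighm takes 33.1% and 37.3% of the HET bars, 61.4% and 64.3% of the WT bars, and 42.9% to 81.6% of the KO bars.

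KO and WT were compared first. Across 32 exact two-sided permutation tests of shares (8 isotypes in 4 comparisons), none reached 0.05. The smallest p that 2 against 6 libraries allow is 0.0357. The 8 tests of WT against HET could not reach 0.05, since 2 against 2 libraries allow no p below 0.333. Ighm had a mean share of 62.9% ± 2.10 (SD, n = 2) in WT and 55.9% ± 14.9 (n = 6) in KO, a difference of -6.99 percentage points (exact permutation p = 0.571). Ighg1 differed by -2.94 points (exact permutation p = 0.75), Ighg2b by 5.72 points (exact permutation p = 0.357) and Ighg2c by 2.57 points (exact permutation p = 0.25). For Igha the KO mean was 1.03% ± 0.449 against 0.417% ± 0.123 in WT, and although the groups did not overlap the exact permutation p was 0.143. On the log2 odds scale the Igha difference was 1.24, at the smallest p the design allows (exact permutation p = 0.0357). Without KO replicate 6 the KO means were 50.7% ± 8.90 for Ighm, 25.8% ± 6.97 for Ighg1 and 0.876% ± 0.263 for Igha (n = 5).

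The same genes were tested for their level relative to the whole library, in one edgeR quasi-likelihood fit per comparison over all genes that passed a filter on low counts, with Benjamini-Hochberg adjustment. All 8 isotypes passed the filter in every comparison. Between KO and WT, 0 of the 8 were called at an adjusted p under 0.1, against 0.00704% of the 14203 genes tested, which is Zbtb38 alone. At an unadjusted p under 0.05 the count was 1 of 8, Igha, against 2.19% of all genes. DESeq2 called 0 of the 8 as well, against 0.0354% of its 14126 genes. The CPM of WT and KO did not overlap for 1 of 8 isotypes, again Igha, against 6.56% of 14354 genes. The median log2 fold change of the isotypes was 0.19, beside 0.01 for all genes tested.

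Igha was at 40.6 and 61.5 CPM in WT and at 94.2, 104, 110, 74.6, 67.5 and 262 CPM in KO, which is a log2 fold change of 1.22 ± 0.49 (SE) and an adjusted p of 0.999 in edgeR. Without KO replicate 6, the highest library, the log2 fold change was 0.82 (edgeR adjusted p = 0.984). Ighg2c had the largest estimate, 1.45 ± 0.67, from 162 and 154 CPM in WT to 83.2 to 911 CPM in KO (median 351), and its 95% interval ran from -0.02 to 2.92. Ighg2b was at 829 and 764 CPM in WT and 742 to 1746 CPM in KO, a log2 fold change of 0.70 ± 0.32. KO replicate 4 lay below both WT libraries for the 2 genes, and KO replicate 6 lay between them for Ighg2b (806 CPM).

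Ighm differed between KO and WT by -0.24 ± 0.36 on the log2 scale, with a 95% interval from -1.03 to 0.55. Ighg1 differed by -0.40 ± 0.56, Ighd by -0.46 ± 0.43, Ighg3 by 0.45 ± 0.35 and Ighe by -0.06 ± 0.47, with adjusted p of 0.999 in edgeR for each. Without KO replicate 6 the log2 fold change was -0.50 for Ighm, -0.18 for Ighg1, -0.77 for Ighd and 0.13 for Ighe, with edgeR adjusted p of 0.984 or 0.993, and that of Ighg3 was 0.46. The 95% intervals of all 8 isotypes reached beyond a change of 1 on the log2 scale in one direction, so that a change of that size was not excluded for any of them with 2 WT libraries.

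**Figure D4:**
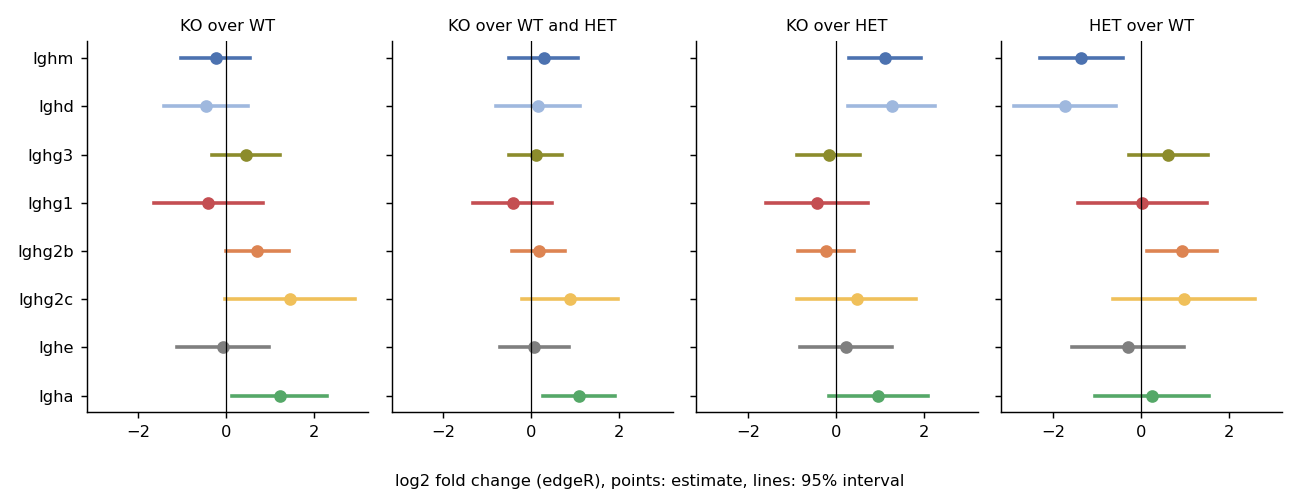
Log2 fold change of each isotype in the 4 comparisons, from edgeR fits over all genes. Points are estimates and lines are 95% intervals. None passed the adjusted threshold, and Ighm and Ighd lie to the right of 0 for KO over HET and to the left for HET over WT.

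Adding the HET libraries to the controls, a second comparison of the study, left Igha as the isotype with the smallest p. Against WT and HET together, 0 of 8 isotypes were called by edgeR at an adjusted p under 0.1 (0.00749% of 13347 genes, again Zbtb38 alone), and 0 by DESeq2 (0.143% of 12550 genes). At an unadjusted p under 0.05 it was 1 of 8, against 6.3% of all genes. The CPM of KO and of the 4 control libraries overlapped for all 8 isotypes, whereas they did not for 1.45% of all genes. The median log2 fold change of the 8 was 0.16, beside 0.02 for all genes.

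Igha was at 35.0 and 87.0 CPM in HET, and KO over both controls gave a log2 fold change of 1.09 ± 0.38 (edgeR adjusted p = 0.744), or 0.68 without KO replicate 6 (edgeR adjusted p = 0.818). Its share differed by 0.469 percentage points (exact permutation p = 0.0857, where 0.00476 is the smallest possible for 4 against 6). The direction held in every alternative run for this comparison. The exact permutation p of the Igha share was 0.0476 on the log2 odds scale and also 0.0476 without HET replicate 2, the control library with the most Igha.

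For the other 7 isotypes the mean share of KO gave an exact permutation p between 0.214 and 0.99. Ighm averaged 49.0% ± 16.1 in the controls (n = 4) and 55.9% ± 14.9 in KO (exact permutation p = 0.5). Ighg1 averaged 30.5% ± 6.82 in the controls and 21.9% ± 11.4 in KO (exact permutation p = 0.214). Without KO replicate 6 the KO mean of the Ighg1 share was 25.8%, and the log2 fold change against both controls was 0.02 for Ighm (0.28 with it), -0.19 for Ighg1 (-0.41 with it), -0.15 for Ighd (0.16 with it), 0.27 for Ighg2b (0.17 with it) and 0.27 for Ighe (0.08 with it). The pooled controls were themselves spread, with Ighm at 62.9% ± 2.10 in WT and 35.2% ± 2.97 in HET.

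WT and HET mice both carry at least 1 working Zbtb38 allele, and the widest gap between group means of the Ighm share was between these groups (27.6 points lower in HET, a difference of -27.6). Switched isotypes together, that is all but Ighm and Ighd, made up 37.5% and 34.1% of the pool in WT and 66.3% and 62.1% in HET, with KO at 33.9% to 56.4% in replicates 1 to 5 and 16.8% in replicate 6. The level of Ighm was 7542 and 7854 CPM in WT and 2769 and 3255 CPM in HET, a log2 change of -1.35 ± 0.43 for HET over WT (edgeR adjusted p = 0.709). Ighd was at 135 and 190 CPM in WT and 48.0 and 50.4 CPM in HET, a log2 change of -1.72 ± 0.53 (edgeR adjusted p = 0.709). Ighg2b was at 1603 and 1423 CPM in HET, above WT by 0.93 ± 0.36 on the log2 scale (edgeR adjusted p = 0.736), while Ighg1 differed by 0.03 ± 0.67. The heavy chain total was 12288 and 12207 CPM in WT and 8361 and 8720 CPM in HET.

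No isotype passed the adjusted threshold between WT and HET in edgeR (0 of 8, against 0.00697% of 14354 genes), and DESeq2 called 1, Ighd (adjusted p = 0.079), against 0.928% of its 13477 genes. At an unadjusted p under 0.05 there were 3 of 8 (Ighm, Ighd and Ighg2b), against 6.42% of all genes. The CPM did not overlap for 5 of 8 isotypes (Ighm, Ighd, Ighg3, Ighg2b and Ighg2c), but with 2 libraries a side this held for 48% of all genes. An exact permutation test of 2 against 2 cannot go below 0.333. In edgeR fits to the 4 libraries alone, Ighm (adjusted p = 0.00249), Ighd (adjusted p = 0.011) and Ighg2b (adjusted p = 0.0111) passed the threshold, 3 of 8 in a fit that called 523 genes, or 3.96% of 13220. The KO libraries did not enter the error estimate of that fit.

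KO lay above HET for Ighm and Ighd. Ighm was at 2769 and 3255 CPM in HET and 3849 to 11775 CPM in KO, with no overlap, a log2 fold change of 1.11 ± 0.37 (edgeR adjusted p = 0.376), and DESeq2 called it (adjusted p = 0.0492). Ighd was at 66.4 to 231 CPM in KO, also above both HET libraries, with a log2 fold change of 1.26 ± 0.45 (edgeR adjusted p = 0.409, DESeq2 adjusted p = 0.0744). DESeq2 thus called 2 of 8 isotypes, against 3.54% of its 12931 genes. Without KO replicate 6 the log2 fold changes were 0.86 for Ighm and 0.96 for Ighd. Between these groups edgeR called 0 of 8 isotypes (0.00697% of 14354 genes), 2 of 8 had an unadjusted p under 0.05 (10.2% of all genes), and 2 of 8 did not overlap in CPM (13.9% of all genes). By share, Ighm was 20.6 points higher in KO (exact permutation p = 0.107) and Ighg1 14.4 points lower, a difference of -14.4 (exact permutation p = 0.143), with no overlap for either. Without KO replicate 6 the KO mean of the Ighm share was 50.7% (55.9% with it), against 35.2% in HET. That of Ighg1 was 25.8% (21.9% with it), against 36.3% in HET. HET libraries enter both this comparison and the previous one, so that the 2 are not separate evidence.

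The mRNA of each isotype can end in a tail for secretion, used when antibody is released, or in a membrane anchor, used in the B cell receptor. For Ighm, the membrane form took 49.1% and 60.6% of the counts in WT, 74.7% and 80.0% in HET, and 72.8%, 71.2%, 57.5%, 49.5%, 48.4% and 50.4% in KO replicates 1 to 6. Both HET libraries lay above all KO and WT libraries. The secreted form of Ighm was at 746 and 708 TPM in HET, 4136 and 3433 TPM in WT and 1066 to 5298 TPM in KO. The membrane form of Ighm was at 1897 and 2431 TPM in HET, 3433 and 4539 TPM in WT and 2204 to 4648 TPM in KO.

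HET also had the highest mean for each IgG gene. For Ighg2b the membrane form took 89.3% and 87.2% of counts in HET, 76.4% and 61.2% in WT and 66.6% to 80.8% in KO. For Ighg1 it was 89.7% and 91.5% in HET, 83.7% and 80.9% in WT and 75.2% to 88.3% in KO. For Ighg2c it was 61.0% and 62.1% in HET, 52.5% and 24.4% in WT and 33.0% to 66.8% in KO, where replicate 1 exceeded HET. For Ighg3 it was 80.4% and 84.5% in HET, 67.1% and 72.1% in WT and 68.3% to 83.8% in KO. Over all 8 genes the membrane share of counts was 82.4% and 84.9% in HET and between 52.8% and 77.2% in the other 8 libraries. This pooled share also depends on the mix of isotypes, whose count shares are not comparable. By TPM, which is scaled for transcript length, it was 71.8% and 75.6% in HET and 44.1% to 67.0% in the other libraries.

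Of 24 exact two-sided permutation tests of the membrane share (8 isotypes in 3 comparisons with KO), 2 reached 0.05, both between HET and KO and both at the smallest p that the design allows. Ighm was 19.1 points lower in KO, a difference of -19.1 (exact permutation p = 0.0357), and Ighg2b differed by -13.9 (exact permutation p = 0.0357). Ighg1 differed by -9.02 (exact permutation p = 0.0714), although its groups did not overlap. With any 1 of KO replicates 3, 4, 5 and 6 left out the Ighm test no longer reached 0.05 (exact permutation p from 0.0952 to 0.19). With 1 HET library left out an exact permutation test cannot go below 0.143, the value found for both genes. Between WT and KO the membrane share of Ighm differed by 3.47 points (exact permutation p = 0.857) and that of Ighg2b by 5.59 points (exact permutation p = 0.393). WT and HET against KO gave -7.80 for Ighm (exact permutation p = 0.295) and -4.15 for Ighg2b (exact permutation p = 0.495).

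For the other isotypes HET also had the highest mean, but its libraries overlapped with those of WT and KO. Ighd was nearly all membrane form, with 97.2% to 100% of counts. Igha had 92.3% and 49.0% membrane form in HET, 70.6% and 59.1% in WT and 36.9% to 75.7% in KO. Ighe was mostly assigned to the secreted form, with 19.5% and 42.0% membrane form in HET, 20.8% and 19.0% in WT and 4.59% to 32.1% in KO.

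**Figure D5:**
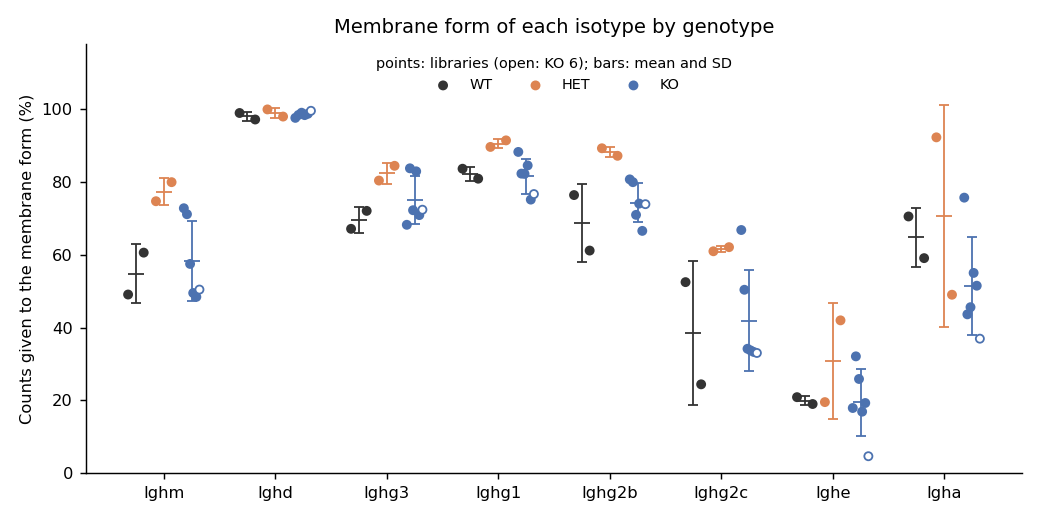
Share of each isotype's estimated counts given to the membrane form, in percent. Points are libraries (open: KO replicate 6) and bars are group mean and SD. HET is highest for Ighm (74.7% and 80.0%), Ighg1 and Ighg2b, without overlap with WT or KO.

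Factors that decide between the 2 tails were looked up from a list of 12 genes for heavy chain RNA processing. Among them Hnrnpll, an RNA-binding splicing regulator, was listed at 0 counts in both HET libraries. It had 202 and 149 counts in WT and 54 to 166 in KO, or 4.85 and 5.15 CPM in WT and 1.82 to 4.99 CPM in KO. With a floor of 3 counts per library in HET, Hnrnpll was at least 49.0-fold higher in WT and at least 32.1-fold higher in KO. It was the only gene that edgeR called between HET and KO (adjusted p = 0.0496) or WT and HET (adjusted p = 0.0395). That call held in 10 of the 19 alternatives that tested the gene between HET and KO and in 11 of 19 between WT and HET. The filter of at least 10 counts in every library left Hnrnpll out. The call was lost in both comparisons with either WT or either HET library left out. Between HET and KO it was also lost with only the libraries of these groups fitted (edgeR adjusted p = 0.222). Its part in the form shares was not tested.

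None of the other 11 genes of that list was called by edgeR in any comparison. Of these 11, DESeq2 called 1, Cpsf2, as lower in KO than in HET, against 3.54% of its 12931 genes. Ell2, an elongation factor for the secreted form, was at 102 and 84.5 CPM in WT, 103 and 96.7 CPM in HET and 71.8 to 101 CPM in KO. Zfp318, required for the Ighd transcript, was at 14.9 and 17.7 CPM in WT, 7.04 and 10.1 CPM in HET and 7.61 to 23.7 CPM in KO. The 3 libraries with the least Ighd, both HET libraries and KO replicate 5 (66.4 CPM of Ighd), were among the 4 with the least Zfp318. KO replicate 1, with 87.0 CPM of Ighd, was the other at 9.63 CPM of Zfp318. KO replicate 2 had 70.1 CPM of Ighd but 14.5 CPM of Zfp318. A link between the 2 genes was not tested. The cleavage factors Cstf2 and Cpsf2 differed by -0.35 and -0.25 on the log2 scale between KO and both controls, and the transcription cofactor Eaf2 by 0.16 (edgeR adjusted p = 0.744, 0.744 and 0.753). In that comparison 0 of the 12 were called, 1 was lower at an unadjusted p under 0.05 (a share near the 6.3% of all genes), and the median log2 fold change was -0.02.

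Of 10 light and accessory chain genes, edgeR called 0 in any comparison, against at most 0.00749% of all genes. DESeq2 also called 0, against 0.0354% to 3.54% of its genes. At most 1 of the 10 had an unadjusted p under 0.05 in edgeR, against 2.19% to 10.2% of all genes. Igkc, the kappa constant gene, was at 4462 and 3884 CPM in WT, 3192 and 2724 CPM in HET and 3212 to 7586 CPM in KO. The log2 fold change of Igkc was 0.45 ± 0.23 for KO over both controls and 0.72 for KO over HET, where its unadjusted p was 0.0239 in edgeR. Jchain, which joins IgM and IgA into polymers, was at 1168 and 1017 CPM in WT, 963 and 924 CPM in HET and 886 to 1392 CPM in KO. Cd79a and Cd79b, the signal chains of the B cell receptor, were at 1713 to 2983 CPM and 1550 to 2388 CPM over all libraries. Mzb1, a chaperone of IgM assembly, had a log2 fold change of 0.29 ± 0.12 and Iglc3 one of 0.36 ± 0.19 over both controls (edgeR adjusted p = 0.744 for each).

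Of 26 listed genes of the class switching machinery, 23 were found by symbol and tested, and edgeR called 0 in any comparison. DESeq2 called 2 of the 23, Trp53bp1 and Msh6, as lower in KO than in HET, against 3.54% of its 12931 genes. It called 0 in the other 3 comparisons. Between KO and both controls 2 of 23 were lower at an unadjusted p under 0.05, a share near the 6.3% of all genes: Trp53bp1, a repair factor that favours joining of switch breaks, by -0.75 ± 0.22, and the mismatch sensor Msh6, by -0.47 ± 0.17 on the log2 scale (edgeR adjusted p = 0.744 for both). Trp53bp1 was at 53.9 and 66.3 CPM in WT, 76.0 and 75.5 CPM in HET and 26.8 to 61.9 CPM in KO. The base excision enzyme Apex1 differed by 0.30 ± 0.14. The median of the 23 was -0.06, beside 0.02 for all genes.

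Of 20 genes for signals that direct switching, such as cytokine receptors and their STAT factors, edgeR called 0 in any comparison. DESeq2 called 1 of the 20, Runx3, as higher in KO than in HET, against 3.54% of its 12931 genes. Il4ra, the IL-4 receptor chain behind switching to IgG1 and IgE, differed by -0.36 ± 0.13 between KO and both controls, Tgfbr2 by -0.29 ± 0.12 and the shared cytokine receptor chain Il2rg by 0.31 ± 0.14 (edgeR adjusted p = 0.744 for each). Tbx21, which encodes T-bet and was picked after its values were seen, was at 19.5 and 20.2 CPM in WT, 39.4 and 34.4 CPM in HET and 17.4 to 67.9 CPM in KO. Its highest value was in KO replicate 5 and its lowest in KO replicate 4. These 2 also held the highest and lowest Ighg2c (911 and 83.2 CPM). KO replicate 3 had the next lowest Tbx21 (18.9 CPM), but its Ighg2c was at 357 CPM, above both WT libraries. A link between Tbx21 and Ighg2c was not tested. Of 16 transcription factors of the heavy chain locus, edgeR called 0. DESeq2 called 1 of the 16, Ets1, as lower in KO than in HET, against the same 3.54% of its genes. Tcf3 (-0.27 ± 0.10), Ets1 (-0.32 ± 0.12) and Spib (-0.23 ± 0.11) had the smallest p in KO over both controls. Of 8 antibody receptors both tools called 0, against at most 0.00749% of all genes in edgeR and 0.0354% to 3.54% in DESeq2. At most 1 of the 8 had an unadjusted p under 0.05 in edgeR in any comparison, against 2.19% to 10.2% of all genes. Trim21 (-0.19 ± 0.14), Fcgrt (0.46 ± 0.45) and Fcrla (0.15 ± 0.16) had the smallest p in KO over both controls.

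Markers of other cell states also differed between libraries. Summed naive B cell markers (10 genes) were at 1557 and 1615 CPM in WT, 1164 and 1206 CPM in HET and 1061 to 2134 CPM in KO, with the highest value in KO replicate 6. Among them Klf2, a factor of resting B cells picked after its values were seen, was at 119 and 137 CPM in WT, 32.6 and 38.7 CPM in HET, 133 CPM in KO replicate 4, 226 CPM in KO replicate 6 and 60.3 to 90.0 CPM in the other KO libraries. These 4 libraries with the most Klf2, WT replicates 1 and 2 and KO replicates 4 and 6, were also those with the most Ighm and the most Ighd. Summed germinal center markers went the other way, with 3062 and 2801 CPM in WT, 3903 and 3867 CPM in HET, 2584 CPM in KO replicate 4, 2118 CPM in KO replicate 6 and 3175 to 4462 CPM in the rest. Other naive markers, also picked after their values were seen, were mixed. Ccr7 and S1pr1 were highest in the same 4 libraries as Klf2, but Cr2 and Il4ra were not. Cr2 was at 361 and 326 CPM in WT and 414 and 365 CPM in HET. Il4ra was at 265 and 250 CPM in WT and 217 CPM in KO replicate 6. The part of these cell states in the isotype shares was not tested.

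Myeloid markers were also lower in HET than in WT, with sums of 93.8 and 105 CPM against 617 and 486 CPM. KO was at 82.6 to 802 CPM, with replicate 2 below both HET libraries. Lyz2 alone gave 345 and 298 CPM in WT, 35.7 and 22.7 CPM in HET and 20.9 to 523 CPM in KO. T cell markers summed to 195 and 200 CPM in HET, 299 and 303 CPM in WT and 194 to 286 CPM in KO, of which Lck alone gave 126 to 220 CPM. None of the 10 myeloid or 10 T cell markers was at 0 in every library of a group. Plasma cell markers (12 genes) summed to 1732 and 1625 CPM in HET, 2015 and 1791 CPM in WT and 1596 to 2159 CPM in KO. Sdc1, which encodes the plasma cell marker CD138, was also picked after its values were seen. It was at 4.97 and 1.23 CPM in HET, 15.1 and 16.0 CPM in WT and 5.03 to 29.0 CPM in KO. Not all 12 were lower in HET, where Slamf7 was at 305 and 309 CPM, against 248 and 248 CPM in WT. Prdm1 and Xbp1, factors of secretory cells, were at 2.39 to 31.4 CPM and 220 to 465 CPM over all libraries. Of these 3 lists edgeR called 0 genes in any comparison. DESeq2 called 3 of 10 T cell (Trac, Trbc1, Trbc2) and 2 of 10 myeloid markers (C1qc, Cd68) as higher in KO than in HET. It also called 2 of 12 plasma cell markers (Fkbp11, Sdc1) as higher in KO, against 3.54% of its 12931 genes. Between WT and HET it called 5 of 10 T cell markers (Cd3e, Cd3g, Trac, Trbc1, Trbc2) as lower in HET. There 1 of 10 myeloid (Itgam) and 1 of 12 plasma cell markers (Fkbp11) were also called lower, against 0.928% of its 13477 genes. Their part in the membrane and secreted shares was not tested.

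Between KO and both controls edgeR and DESeq2 called 0 genes of each of these marker lists and of the memory and B cell lists, and the genes with the smallest p in each had adjusted p from 0.744 to 0.828. Their log2 fold changes were -0.36 and 0.55 for Il4ra and Gpr183 (naive), 1.04, -0.40 and 0.71 for Zbtb32, Nt5e and Cd80 (memory), and -0.28, -0.24 and -0.16 for Nuggc, S1pr2 and Bcl6 (germinal center). They were -0.24, 0.24 and 0.13 for Ptprc, Cd79a and Cd79b (B cell), 1.39, 0.27 and 0.20 for Fkbp11, Xbp1 and Jchain (plasma cell), 0.68, -0.53 and -0.56 for Cd8a, Cd4 and Cd3e (T cell), and -2.48, 0.59 and -1.36 for S100a9, Cd68 and S100a8 (myeloid). Between HET and KO, 5 of 10 naive, 5 of 10 T cell and 5 of 10 myeloid markers were higher in KO at an unadjusted p under 0.05, against 10.2% of all genes in either direction, and 0 passed the adjusted threshold in edgeR. DESeq2 called 3 naive markers (Ccr7, Gpr183, Klf2) and 1 memory marker (Ccr6) as higher in KO than in HET. These were 3 of 9 and 1 of 6 with an adjusted p, against 3.54% of its 12931 genes. It called 1 of 9 naive markers, Klf2, as lower in HET than in WT, against 0.928% of its 13477 genes.

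Genes whose CPM followed an isotype most closely were picked by Pearson correlation of log2(CPM + 1) over the 10 libraries, among 8477 genes outside the immunoglobulin loci with a mean of at least 10 CPM. For Ighm these were Snn (r = 0.980), Pld4 (r = 0.978) and Selplg (r = 0.976), and without KO replicate 6 their r was 0.967 to 0.971. For Ighg1 they were Rapgef3 (r = 0.979), Clcn7 (r = 0.977) and Il16 (r = 0.974), and without KO replicate 6 their r was 0.621 to 0.769. These are the highest of many correlations over libraries that share their depth and preparation, and they are descriptions only.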

How the data were processed

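RNA was sequenced from SMART-Seq v4 libraries of 10 samples in 3 genotypes, grouped by the labels. The authors quantified transcripts with Salmon 0.9.1 (submitters' processing notes), with Gencode release M17 annotation by the study's methods (the names of all 64019 transcripts list a coding sequence), and deposited an estimated count per transcript. They also deposited a TPM value per transcript. Here both were summed per gene ID, and counts were rounded. Library totals were 26612431 to 41059082, and 95% intervals of shares cover counting error only.

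Genes were tested with edgeR 4.0.16 in R 4.3.3 (TMM, filterByExpr, quasi-likelihood, Benjamini-Hochberg, adjusted p under 0.1). WT vs KO was fitted to those 8 libraries, and the other comparisons to all 10. Shares were compared by exact two-sided permutation over libraries (threshold 0.05), with p-values not adjusted for the 32 and 24 tests. Alternatives were DESeq2 1.42.0, limma 3.58.1 on TPM, other scalings, filters and denominators, a replicate block and leaving out each library. The edgeR fit and the permutation test were tested on simulated data. Positions and sequences come from Gencode release M21 (GRCm38), where all 16 isotype transcripts had the deposited length.

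The members and gene lists were chosen with earlier results of these data known. Named genes were the isotypes, Zbtb38, Igkc, Jchain, Zfp318, Ell2, Prdm1, Xbp1, Cd79a and Cd79b, any listed gene with an adjusted p under 0.1 and otherwise the 3 of a list with the smallest p in WT and HET vs KO, and the 3 genes most correlated with Ighm and with Ighg1. Some genes that this rule names are not reported here. The study counts its libraries as mice, while the labels give no animal for each, and p-values measure the spread between these samples. No pair of libraries of the same genotype agreed within sampling noise, and pairs across genotypes were not checked.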

Additional observations from a re-analysis of the deposited data

Results flagged for a closer look

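Igha in KO replicate 6 was at 261.5 CPM, far from the other KO libraries, of which the next highest was at 110.3 CPM. The gap was 0.78 of the range of the 6 KO libraries, above Dixon's 95% critical value for 6 samples. The membrane form of Igha took 54.0% of its TPM in KO replicate 1, with 31.5% in the next library and a gap of 0.631 of the range. These were 2 of 32 groups checked, and chance alone is set to flag about 1 in 20 groups.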

How the results depend on the processing

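The genes that edgeR called (1 in each comparison) changed with the tool. WT vs KO gave 5 with DESeq2, 0 with counts scaled by effective length, 0 with limma on log2(TPM + 1), 3 on log2(TPM + 0.1) and 0 to 2 with 1 library left out. WT and HET vs KO gave 18 with DESeq2, 0 with length scaling, 0 and 0 with limma and 1 to 2 with 1 library left out. HET vs KO gave 458 with DESeq2, 2 with no filter, 0 with at least 10 counts in every library, 6 on log2(TPM + 0.1), 0 with only its own libraries and 0 to 5 with 1 left out. WT vs HET gave 125 with DESeq2, 0 with at least 10 counts, 5 on log2(TPM + 0.1), 523 with only its own libraries and 0 to 16 with 1 left out. The causes were not tested.

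Same-numbered libraries deviated together with r from -0.008 to 0.127, so the numbers were not taken to pair animals. With the replicate block, 6, 0, 4 and 66 genes were called in WT vs KO, WT and HET vs KO, HET vs KO and WT vs HET. Only KO has replicates 3 to 6, and the block gives each of these libraries a term of its own. The blocked comparisons with KO therefore rest on KO replicates 1 and 2. The block called Ighm, Ighd and Ighg2b in WT vs HET (edgeR adjusted p = 0.0312, 0.0374 and 0.0674), and turned Ighm (-0.32) and Ighd (-0.41) in WT and HET vs KO and Ighg3 (0.071) and Ighg2b (0.042) in HET vs KO.

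Of 576 alternative log2 fold changes, 32 changed sign. In WT and HET vs KO, limma gave -0.058 and -0.058 for Ighg3 and -0.16 and -0.17 for Ighe, and leaving out 1 library gave -0.15 to 0.60 for Ighd, -0.12 to 0.32 for Ighg3 and -0.086 to 0.27 for Ighe. In WT vs KO, Ighe ranged from -0.31 to 0.23. In HET vs KO, length scaling gave 0.020 for Ighg2b, and leaving out 1 library gave -0.38 to 0.083 for Ighg3 and -0.13 to 0.71 for Ighe. In WT vs HET, Ighg1 was -0.000187 with at least 10 counts, -0.14 with length scaling and -0.16 and -0.16 with limma (-0.063 to 0.13 without 1 library), Igha was -0.00402 and -0.0101 with limma (-0.54 to 0.77), and Ighe ranged from -0.77 to 0.066. Limma on TPM moved the median of all genes in WT vs KO to -0.11 and -0.16, from 0.01.

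Isotype shares past 0.05 went from 0 to 1 (Igha) on log2 odds in WT vs KO and in WT and HET vs KO, where leaving out 1 library gave 0 to 1. Of 360 alternative shares 47 changed sign. In WT vs KO, Ighg1 was 0.136 with secreted transcripts only (-5.41 to 0.946 without 1 library), and Ighe was -0.073 on log2 odds and -0.0996 among switched isotypes (-0.0277 to 0.0947). In WT and HET vs KO, Ighd was -0.0164 for secreted transcripts (-0.0706 to 0.256), Ighg3 1.98 among switched isotypes (-0.856 to 0.656), Ighg2b -1.86 to 2.45, and Ighe -0.0245 by TPM, -0.17 on log2 odds and -0.321 for secreted transcripts (-0.0353 to 0.0629). In HET vs KO, switched isotypes as denominator gave 1.22 for Ighg3, 0.830 for Ighg2b and 0.227 for Ighe (-0.149 to 0.0944), Ighg2c was -0.426 by TPM, -0.16 on log2 odds and -2.14 for secreted transcripts (-1.02 to 1.38), and Igha was -0.245 for secreted transcripts. In WT vs HET that denominator gave -12.6 for Ighg1, -0.327 for Ighe (-0.0610 to 0.183) and -0.0587 for Igha.

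Membrane shares past 0.05 were 0 to 1 without 1 library in WT vs KO and in WT and HET vs KO (Igha without KO replicate 1), and 0 to 4 in HET vs KO. Differences ranged in WT vs KO from -2.30 to 9.23 for Ighm, -0.335 to 1.45 for Ighd, -2.12 to 0.622 for Ighg1, -2.05 to 13.2 for Ighg2b, -10.6 to 17.5 for Ighg2c and -3.02 to 2.47 for Ighe. They ranged in WT and HET vs KO from -0.338 to 0.587 for Ighd and -3.90 to 1.88 for Ighg3, and in HET vs KO from -1.32 to 0.644 for Ighd and -40.9 to 2.38 for Igha. Log2 odds could not be computed for Ighd in comparisons with HET. WT and HET had 2 libraries each, and the KO libraries were widely spread.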
